A study of Mus musculus with 9 samples.

Results

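The interferon regulatory factors (IRFs) examined here are 8 transcription factor genes, Irf1, Irf2, Irf3, Irf4, Irf5, Irf7, Irf8 and Irf9, taken by gene symbol from a table of 53379 mouse genes. All 8 had a row and all 8 were among the 12824 genes tested, that is, genes with a mean of at least 0.5 FPKM (fragments per kilobase of exon and 1000000 fragments). The mRNAs were measured in bone marrow (BM)-derived Mϕs of wild-type C57BL/6 mice, with 3 libraries for each of 3 groups and 3 mice in the study. Marrow cells were first cultured for 3 days with CSF-1 at 10 ng/ml, the growth factor that drives marrow precursors to become Mϕs. For a further 4 days, control cells received CSF-1 alone, another group received CSF-1 with IL-4 at 10 ng/ml, and the last received CSF-1 with IL-6 at 100 ng/ml. Doses and times are those of the series' design text, while the published methods state another IL-4 dose and the published legend other doses and another time. All groups carried CSF-1 throughout, no allele differed between them, and no sorting of the cultures was described. The comparisons ask how each cytokine, against CSF-1 alone and against the other, shifted the mRNA of this family and of the genes around it.

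IRFs share a DNA-binding domain that reads GAAA repeats, found in the interferon-stimulated response element (ISRE) of antiviral genes. IRF3, IRF5 and IRF7 are activated downstream of nucleic acid sensors and switch on interferon genes, IRF9 is the DNA-binding subunit of the complex ISGF3 that carries the type I interferon signal, and IRF1 and IRF2 bind the same elements as an activator and mostly a repressor. IRF4 and IRF8 are close relatives that bind with partners such as PU.1 and BATF proteins; IRF8 directs monocyte and dendritic cell development, and IRF4 is known for alternative activation of Mϕs by IL-4.

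The libraries held between 29988160 and 39909571 fragments. The library of IL-4-treated cells #3 stood apart from the other IL-4 libraries by gene length, as genes with over 5000 bases of exon had a median log2 deviation of -0.87 there and genes with under 2000 bases one of 0.39. Fragments of intestinal Paneth and goblet cell genes (Lyz1 left out, as Mϕs express it) ran at 23.6 to 33.5 per 1000000 in all 3 control libraries and IL-4 #1, against 0.099 to 0.245 per 1000000 in IL-4 #2, IL-4 #3 and all 3 IL-6 libraries, so these genes divide the libraries in a way the groups do not. The summed FPKM of the 8 Mϕ markers was 16660 to 18970 in control libraries, 6021 to 7062 in IL-4 libraries and 20370 to 21460 in IL-6 libraries, and all 8 averaged above 1 FPKM in every group. Lyz2 alone averaged 14580, 5053 and 18490 FPKM in these groups, so the sum mostly follows this gene. Other markers ran differently, with Itgam at 35.3, 60.1 and 66.6 FPKM and Cd68 at 1513, 850 and 952 FPKM. The 8 granulocyte markers summed to 4729 to 8431, 2135 to 3975 and 7861 to 10920 FPKM in that order. In whole cultures such as these, fewer cells of a type and less RNA per cell cannot be told apart.

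The promoters of the genes whose mRNA moved most are shown first, as cytokine receptors act on this family through STAT proteins whose sites have a recognizable spacing. STAT3, which IL-6 activates, prefers the site called GAS, TTC and GAA with any 3 bases between them, and STAT6, which IL-4 activates, prefers the same triplets with any 4 bases between them. Both strands of the RefSeq windows (GRCm38.p6, 250 bases before to 50 after each start site) were searched. A GAS match was present in 8.3% of 32851 windows, a match with the longer spacing in 6.95%, and an ISRE match (GAAA, any 2 bases, then GAAAC) in 0.819%. All 8 genes had a window and there were 11 windows in all. Below are the parts that lie before the annotated gene, read 5′ to 3′ on the gene's strand, of Irf4 (chr13:30748983-30749225, + strand), Irf1 (chr11:53769764-53770013, + strand), Irf7 (chr7:141266482-141266674, - strand) and Irf8 (chr8:120736108-120736357, + strand), with GAS matches in capitals.
Irf4: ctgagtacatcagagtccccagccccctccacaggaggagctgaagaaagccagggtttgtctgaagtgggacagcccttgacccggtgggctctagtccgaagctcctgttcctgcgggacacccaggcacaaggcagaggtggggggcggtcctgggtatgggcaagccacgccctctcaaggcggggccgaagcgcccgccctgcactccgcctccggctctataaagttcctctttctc
Irf1: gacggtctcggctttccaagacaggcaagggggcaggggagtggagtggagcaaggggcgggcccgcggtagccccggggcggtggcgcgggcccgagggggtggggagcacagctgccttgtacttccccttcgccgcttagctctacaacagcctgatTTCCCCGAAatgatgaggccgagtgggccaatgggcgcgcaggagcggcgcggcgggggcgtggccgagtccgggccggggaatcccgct
Irf7: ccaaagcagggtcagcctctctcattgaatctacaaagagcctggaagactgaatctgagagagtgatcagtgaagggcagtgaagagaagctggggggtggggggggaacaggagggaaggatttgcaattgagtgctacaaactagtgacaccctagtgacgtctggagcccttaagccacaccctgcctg
Irf8: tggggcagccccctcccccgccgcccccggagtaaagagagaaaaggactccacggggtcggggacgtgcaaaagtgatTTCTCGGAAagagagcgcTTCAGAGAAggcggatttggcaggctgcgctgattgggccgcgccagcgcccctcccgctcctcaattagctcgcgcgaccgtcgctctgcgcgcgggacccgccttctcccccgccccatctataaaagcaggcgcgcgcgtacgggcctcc
Irf1 held 1 GAS match, which began 90 bases before its start site. Irf8 held 2 matches, beginning 171 and 153 bases before its start site. The windows of Irf4 and Irf7 held none of the 3 motifs. Among the other members, Irf2 held a GAS match 224 bases before its start site, Irf9 held a longer-spaced match 1 base after its start site, and the windows of Irf3 and Irf5 held none. No window of the family held an ISRE match. A match describes the letters only, and no binding was measured.

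In control Mϕs, Irf5 had the highest FPKM of the IRF mRNAs, at 73.4 ± 1.37 FPKM (mean ± SD, n = 3). FPKM here divides by all annotated exon bases of a gene, which for Irf7 (3776 bases) cover its whole span. Levels can therefore be set side by side between genes only roughly, and the order, sums and shares below carry that limit. Irf8 followed at 43.2 ± 0.469, Irf1 at 24.0 ± 2.83, Irf3 at 16.8 ± 2.03, Irf7 at 10.2 ± 1.81, Irf9 at 9.85 ± 0.663, Irf2 at 7.28 ± 0.907 and Irf4 at 1.88 ± 0.311 FPKM. Each gene was separated from the next in this order in every control library except Irf7 and Irf9, whose ranges overlapped. With IL-4 the order changed, with Irf1 next to Irf5 at 60.5 ± 25.4 FPKM, Irf4 after Irf8 at 14.7 ± 5.99 FPKM and Irf7 last at 2.06 ± 0.275 FPKM. In this order the ranges of Irf5 and Irf1 overlapped, as did those of each neighbouring pair from Irf8 through Irf4, Irf3 and Irf2 to Irf9. With IL-6 the order was that of the control cells from Irf5 to Irf4, with overlapping ranges for Irf8 and Irf1 and for each neighbouring pair from Irf3 through Irf7 and Irf9 to Irf2.

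**Figure D1:**
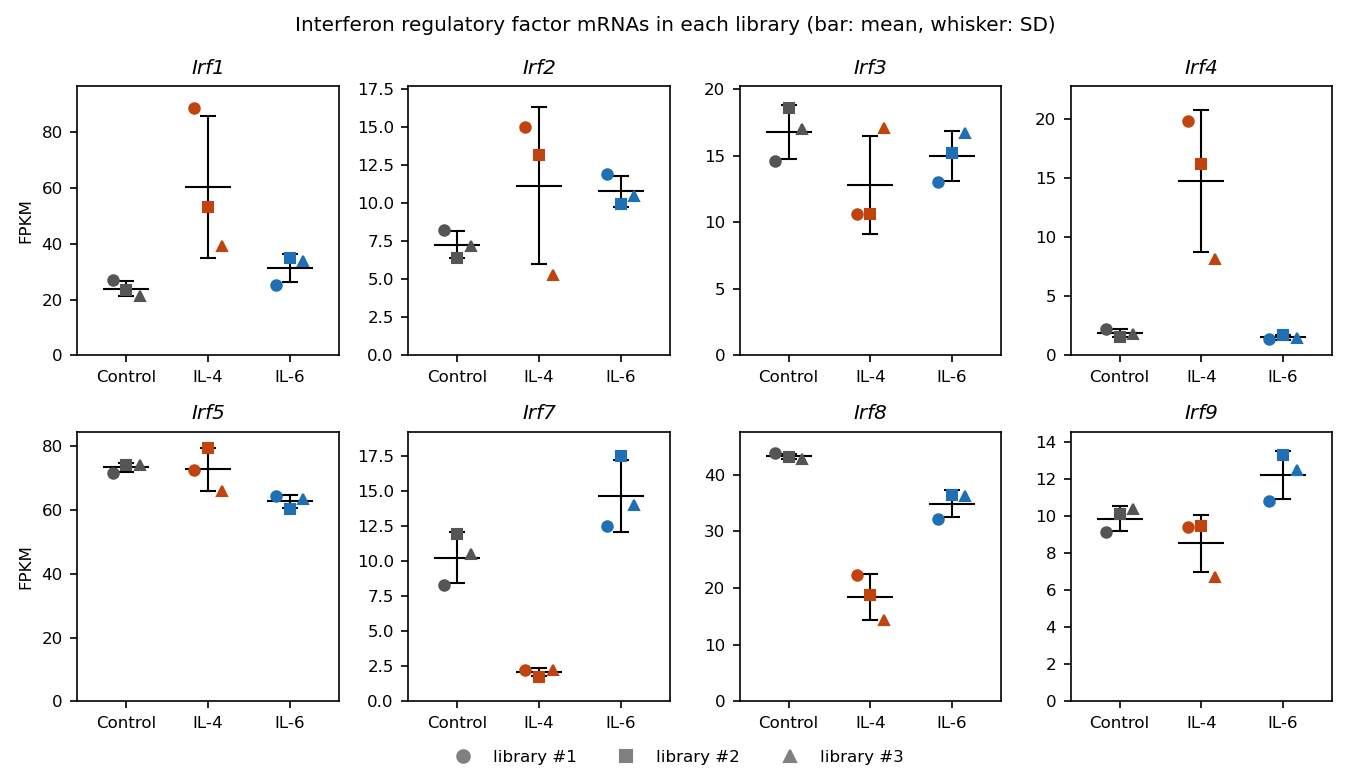
FPKM of each IRF mRNA (y axis, from 0) in control, IL-4-treated and IL-6-treated Mϕs (x axis), with 1 point per library, the mean as a bar and the SD as a whisker. Irf4 and Irf1 sit above every control library in the IL-4 group, and Irf7 and Irf8 below, and no IL-6 mean is more than 1.48-fold from its control mean.

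The summed FPKM of the 8 genes was 187 ± 2.4 in control, 201 ± 40.9 in IL-4-treated and 183 ± 10.1 in IL-6-treated libraries (n = 3 each), and these ranges overlapped. What differed was the make-up. Irf1 supplied 11.5 to 14.6% of the sum in control libraries, 24.7 to 36.8% with IL-4 and 14.8 to 18.4% with IL-6. Irf8 supplied 22.8 to 23.7%, 8.97 to 9.24% and 18.8 to 19.2% in the same order. Its share thus hardly varied among the 3 IL-4 libraries, even though their sums ran from 159 to 241 FPKM. The Irf4 to Irf8 ratio was 0.0505, 0.0369 and 0.0427 in control libraries #1 to #3, 0.892, 0.869 and 0.571 in IL-4 libraries and 0.0425, 0.0479 and 0.0398 in IL-6 libraries. The ratio was 17.9-fold higher with IL-4 than in control cells with no overlap, and its IL-6 range overlapped with the control range. The two-sided exact permutation p of the IL-4 difference was 0.1, the smallest that 3 against 3 libraries allow. The Irf7 to Irf3 ratio, between the interferon-induced and the constitutive sensor-activated factor, averaged 0.608 ± 0.0354 in control, 0.168 ± 0.0412 in IL-4-treated and 0.981 ± 0.156 in IL-6-treated libraries. The ranges of all 3 groups were apart (exact p = 0.1 for each pair).

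**Figure D2:**
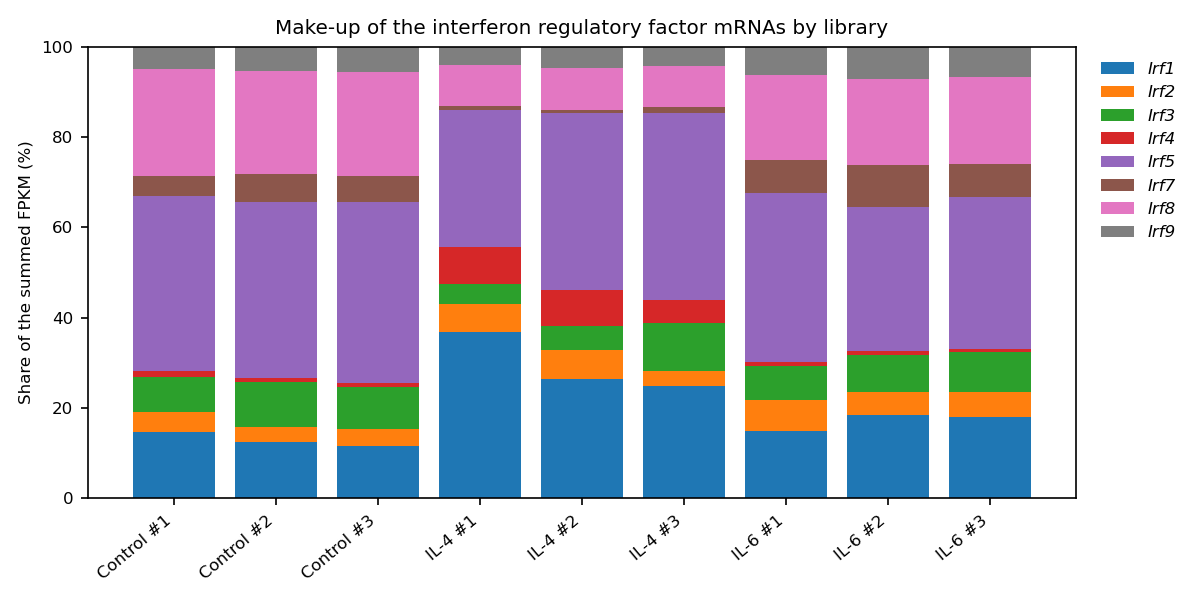
Share of the summed FPKM of the 8 IRF mRNAs (y axis, percent) supplied by each gene (color) in each of the 9 libraries (x axis). Irf1 takes 24.7 to 36.8% with IL-4 against 11.5 to 14.6% in control libraries, and Irf8 shrinks to 8.97 to 9.24%. Irf4 and Irf7 change places as the member with the smallest share.

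IL-4 raised Irf4 and Irf1 and lowered Irf7 and Irf8, so 4 of the 8 IRF genes differed from control Mϕs. The threshold was a Benjamini-Hochberg adjusted p under 0.05 in limma, fitted on log2(FPKM + 0.1) over all 12824 genes, and 24.8% of those genes passed it in this comparison. All 4 changed at least 2-fold (log2 fold change of 1 or more either way), as did 13.9% of the tested genes, and the libraries of these 4 did not overlap between groups, as held for 40.3%. The median log2 fold change was -0.12 over the IRF genes and -0.20 over all tested genes, and the latter became -0.01 when each library was rescaled by its median ratio. With that rescaling the all-gene calls split into 1574 higher and 1618 lower, against 1096 and 2090 as deposited. The p-values rest on the spread within the groups, pooled over all 9 libraries of the fit and moderated across genes.

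Irf4 (chr13:30749226-30766976, GRCm38) read 2.21, 1.59 and 1.83 FPKM in control libraries #1 to #3 and 19.8, 16.2 and 8.15 FPKM with IL-4. Every IL-4 library stood above every control library, and IL-4 #3 was the lowest of the 3. The mean was 7.85-fold higher, a log2 fold change of 2.83 (SE 0.313, 95% interval 2.11 to 3.54, adjusted p = 0.000425). The control values rested on 234 to 378 fragments and the IL-4 values on 1595 to 3325. Its relative Irf8 (chr8:120736358-120756694, 7055 bases of exon) moved the other way. Irf8 read 43.8, 43.1 and 42.8 FPKM in control libraries and 22.2, 18.7 and 14.3 FPKM with IL-4. Control libraries hardly varied, and each IL-4 library lay far under them. The mean was 2.35-fold lower (log2 fold change -1.25, SE 0.16, 95% interval -1.62 to -0.89, adjusted p = 0.000837). Both genes passed without any 1 of the 9 libraries, with log2 fold changes between 2.57 and 3.20 for Irf4 and between -1.40 and -1.08 for Irf8.

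Irf1 (chr11:53770014-53778374), the activator of the IRF1 and IRF2 pair, read 27.0, 23.6 and 21.4 FPKM in control libraries and 88.7, 53.4 and 39.3 FPKM with IL-4. All IL-4 libraries were above all control libraries, but they spread more widely than any other group of this gene. The mean was 2.52-fold higher (log2 fold change 1.26, SE 0.281, adjusted p = 0.0133). Without control library #3 the log2 fold change was 1.18 and the adjusted p 0.0544. Irf2 (chr8:46739732-46847458), its mostly repressive counterpart, read 8.23, 6.43 and 7.18 FPKM in control libraries and 15.0, 13.2 and 5.30 FPKM with IL-4. The IL-4 libraries fell on both sides of the control range, and the log2 fold change was 0.48 (95% interval -0.32 to 1.29, adjusted p = 0.355). Irf2 has the longest exons of the family (7396 bases), and IL-4 #3 was its low library. Without that library the log2 fold change was 0.95 (adjusted p = 0.00103).

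Irf7 (chr7:141262706-141266481), the interferon-induced amplifier of interferon production, read 8.32, 11.9 and 10.5 FPKM in control libraries and 2.25, 1.75 and 2.2 FPKM with IL-4. The 3 IL-4 libraries sat close together, far under the lowest control library. The mean was 4.96-fold lower (log2 fold change -2.25, SE 0.191, 95% interval -2.69 to -1.81, adjusted p = 0.000112), on 200 to 331 fragments per IL-4 library, and the call held without any 1 of the 9 libraries. Irf3 (chr7:44997648-45002848), the constitutive partner of this pathway, read 14.6, 18.6 and 17.0 FPKM in control libraries and 10.7, 10.6 and 17.1 FPKM with IL-4. The low pair did not reach the control range and IL-4 #3 lay inside it. The log2 fold change was -0.42 (adjusted p = 0.186), and without IL-4 #3 it was -0.64 (adjusted p = 0.00742).

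Irf5 (chr6:29526625-29541871), which acts in inflammatory activation downstream of Toll-like receptors, read 71.8, 74.1 and 74.3 FPKM in control libraries and 72.7, 79.6 and 66.0 FPKM with IL-4. These ranges overlapped, and the 95% interval of the log2 fold change ran from -0.26 to 0.22. Irf9 (chr14:55603571-55610030), the DNA-binding subunit of ISGF3, read 9.11, 10.1 and 10.4 FPKM in control libraries and 9.38, 9.45 and 6.73 FPKM with IL-4. The ranges overlapped and the log2 fold change was -0.22 (95% interval -0.59 to 0.15, adjusted p = 0.360). Exons of Irf9 share 123 of 5386 bases with Rnf31 on the same strand. Those of Irf5 share 411 of 2905 bases with Tnpo3 on the other strand, and Irf1, Irf3 and Irf7 share between 45 and 135 bases with genes on the other strand. Whether counting used strand was not given in the sources used here.

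**Figure D3:**
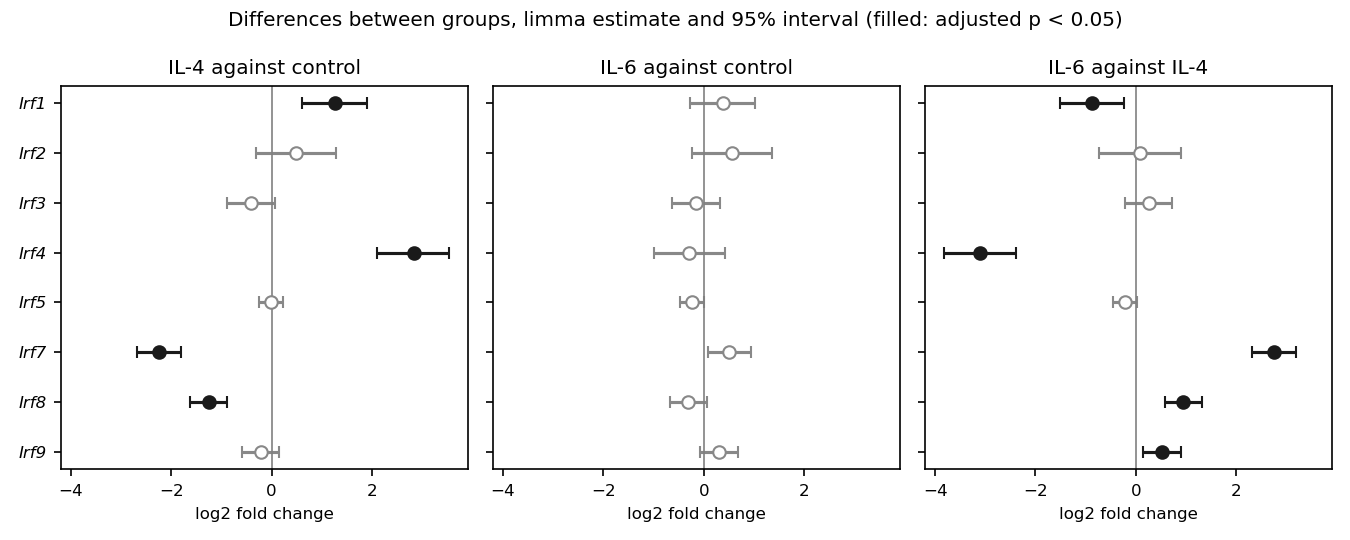
log2 fold change (x axis) of each IRF mRNA (y axis) in the 3 comparisons, with the limma estimate as a point and its 95% interval as a line; filled points have an adjusted p under 0.05. The IL-4 panel has 4 filled points, the IL-6 against control panel none, and the direct comparison 5.

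Fold changes of the 4 called genes were also read within the libraries alike in intestinal fragments. IL-4 #1, the IL-4 library that carried them as the controls did, was 10.6-fold above the control mean for Irf4 and 3.70-fold for Irf1, and the control mean was 4.56-fold above it for Irf7 and 1.95-fold for Irf8. With 1 IL-4 library this has no test. Markers of Mϕs and of some other cell types, though not of all, also differed with IL-4, in a comparison where 16.3% of all tested genes fell and 8.55% rose. The 8 granulocyte markers held 7 that fell with IL-4, such as Elane at 65.8 ± 29.0 FPKM in control and 9.56 ± 2.31 FPKM in IL-4-treated Mϕs. Mϕ markers held 6 of 8 that fell, among them Lyz2 at 14580 ± 1289 against 5053 ± 635 FPKM. Of the plasmacytoid dendritic cell markers, whose cells are rich in Irf7 and Irf8, Siglech fell from 3.33 ± 0.202 to 0.960 ± 0.331 FPKM and Ccr9 from 0.636 ± 0.0644 to 0.134 ± 0.0840 FPKM, whereas Cox6a2 rose from 3.24 ± 1.32 to 24.6 ± 23.2 FPKM. The other tested markers of this list did not pass, Ly6d at 9.25 ± 3.26 FPKM in control against 10.0 ± 5.16 FPKM with IL-4 (adjusted p = 0.925) and Klk1 (adjusted p = 0.927). This list of 6 summed to 11.8 to 20.3 FPKM in control, 15.5 to 68.1 with IL-4 and 10.3 to 18.5 with IL-6. No gene of it was at 0 in all libraries. The 8 conventional dendritic cell markers, also a lineage that needs Irf8, summed to 4.55 to 5.77, 2.75 to 3.77 and 4.52 to 7.73 FPKM in the same order, and none of the 3 that were tested passed with IL-4. B and plasma cell markers, cells known for Irf4, summed to 31.4 to 54.3, 26.0 to 34.4 and 25.9 to 48.1 FPKM, and none of 7 tested passed with IL-4. T and NK cell markers summed to 1.09 to 1.55, 3.87 to 4.88 and 1.12 to 2.04 FPKM, and both that were tested, Lck and Trbc2, rose with IL-4. The part of these cells in the IRF differences was not tested.

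Between IL-6-treated and control Mϕs, the largest ratio of mean FPKM in either direction was 1.48, for Irf2. None of the 8 IRF genes passed the adjusted threshold against control Mϕs, where 8.4% of all tested genes did. The same control libraries served both cytokine comparisons. By an unadjusted p under 0.05, 1 passed (Irf7, where 21.3% of all genes did), and limma voom on fragments recovered from the FPKM values also called none. The libraries of 5 members, Irf2, Irf5, Irf7, Irf8 and Irf9, did not overlap with the control libraries, as was so for 43.2% of all tested genes. Irf7 read 12.4, 17.5 and 14.0 FPKM with IL-6. All 3 exceeded the highest control library, by a small margin for IL-6 #1. The mean ratio was 1.43 and the log2 fold change 0.51 (95% interval 0.08 to 0.95, unadjusted p = 0.0267, adjusted p = 0.163). Irf9 read 10.8, 13.3 and 12.5 FPKM and had a log2 fold change of 0.31 (adjusted p = 0.342). Irf2 read 11.9, 9.93 and 10.5 FPKM, with a ratio of 1.48 to control (log2 fold change 0.56, adjusted p = 0.430). Both genes stood above every control library.

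Irf8 and Irf5 stood under every control library with IL-6. Irf8 read 32.2, 36.4 and 36.2 FPKM (log2 fold change -0.31, 95% interval -0.68 to 0.06, adjusted p = 0.323). Irf5 read 64.3, 60.5 and 63.4 FPKM (log2 fold change -0.23, adjusted p = 0.266). The IL-4-induced pair did not separate from control cells, as Irf1 at 25.4, 34.8 and 33.7 FPKM (log2 fold change 0.38, adjusted p = 0.522) and Irf4 at 1.37, 1.74 and 1.44 FPKM (log2 fold change -0.29, adjusted p = 0.668) both overlapped with control libraries. Irf3 read 13.0, 15.2 and 16.7 FPKM, which overlapped as well (log2 fold change -0.16, adjusted p = 0.720).

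The count changed with the libraries in the fit. Without IL-4 #3, which enters only through the shared estimate of spread, 3 IRF genes passed against control (Irf2, Irf5 and Irf8), and with only control and IL-6 libraries in the fit 2 passed (Irf2 with adjusted p = 0.0199 and Irf8 with adjusted p = 0.0306). The control and IL-6 libraries differ throughout in intestinal fragments, so that division and the treatment cannot be told apart here without the IL-4 libraries. As a term in the fit, the division is estimated only from IL-4 #1 against IL-4 #2 and #3, and IL-4 #3 is the library set apart by gene length. With it as a term, the log2 fold change of Irf8 was 0.13 (adjusted p = 0.697). Of all tested genes, 4.58% rose with IL-6 and 3.82% fell. Of the marker lists, IL-6 raised 1 of 8 Mϕ markers (Cd14), lowered 1 (Cd68) and raised 1 of 7 B and plasma cell markers (Jchain). None of 8 granulocyte, 3 conventional dendritic cell, 5 plasmacytoid dendritic cell and 2 T and NK cell markers tested passed. Intestinal markers had 6 of 7 that fell with IL-6 and 2 of 7 that fell with IL-4. The division by intestinal fragments was drawn from this same list without Lyz1, so these counts are no separate result. Of 5 skeletal muscle markers tested 1, Tnni2, fell with each cytokine. The other 4 had positive estimates with each, none of them called. The median log2 fold change of these markers was 1.60 with IL-4 and 2.35 with IL-6.

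Set directly against each other, IL-6- and IL-4-treated Mϕs differed in 5 of the 8 IRF genes, where 34.1% of all tested genes passed. Irf7, Irf8 and Irf9 were higher with IL-6 (20.8% of all tested genes were), and Irf4 and Irf1 were lower (13.3%). The libraries of 6 members did not overlap, as for 56.9% of all genes, and 2 members, Irf7 and Irf4, were called with at least a 2-fold difference, as were 20.4%. Irf7 was 7.10-fold higher (log2 fold change 2.76, SE 0.191, adjusted p = 2.29e-05) and Irf4 was 9.72-fold lower (log2 fold change -3.11, SE 0.313, adjusted p = 0.000184). Irf8 was 1.90-fold higher (log2 fold change 0.94, adjusted p = 0.00270). These 3 kept an adjusted p under 0.05 without any 1 of the 9 libraries. The calls of Irf9 (1.43-fold higher, log2 fold change 0.53, adjusted p = 0.0367) and Irf1 (1.93-fold lower, log2 fold change -0.88, adjusted p = 0.0422) were close to the threshold. With the library number, taken as a mouse, as a replicate block both were lost, at adjusted p = 0.0531 for Irf9 and 0.0546 for Irf1, which left 3 called. Leaving out single libraries kept the call of Irf9 in 3 of 9 cases and that of Irf1 in 1 of 9, and without IL-4 #3 all 8 genes were called.

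The direct comparison can also be read among the libraries that were all low in intestinal fragments, 2 with IL-4 and 3 with IL-6. There Irf7 was 7.43-fold, Irf8 2.12-fold and Irf9 1.51-fold higher with IL-6, and Irf4 was 8.04-fold and Irf1 1.48-fold higher with IL-4, each with no overlap. The same held for Irf5, 1.16-fold higher with IL-4. The share of all tested genes without overlap among these libraries was not computed, and with all libraries of both groups it was 56.9%. In the fit of all 9 libraries Irf2, Irf3 and Irf5 did not pass, with log2 fold changes of 0.08, 0.26 and -0.21. After median-ratio rescaling Irf5 passed (-0.41, adjusted p = 0.0213) and Irf9 did not (0.33, adjusted p = 0.0593), so that 2 members were higher and 3 lower with IL-6. Quantile normalization left 2 higher and 2 lower, and removal of length and GC trends 4 higher and 1 lower. Over all genes the median log2 fold change was 0.22, and it became 0.02 after median-ratio rescaling. The calls over all genes then split into 2280 higher and 2205 lower with IL-6, against 2671 and 1704 as deposited and 2323 and 2619 after quantile normalization.

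The genes upstream of the family were read from lists of known pathway members. Of 14 interferon ligand, receptor and ISGF3 signalling genes 9 were tested, and 5 of these were called with IL-4, where 24.8% of all tested genes were. IL-4 lowered 4, the receptor chains Ifnar1, Ifnar2, Ifngr1 and Ifngr2, and raised 1, Jak2, a kinase of the interferon-gamma receptor. Ifnar2 averaged 54.9 ± 1.39 FPKM in control and 33.7 ± 1.04 FPKM in IL-4-treated Mϕs (adjusted p = 0.000948), and Jak2 11.0 ± 1.61 against 26.5 ± 11.3 FPKM (adjusted p = 0.0313). These 5 calls became 1 without any 1 control library or with only the groups compared, 2 without any 1 IL-6 library, 3 without IL-4 #1 or #2, and 3 after median-ratio rescaling, by voom, without a filter or with the division by intestinal fragments as a term. IL-6, where 8.4% of all genes were called, raised 2, Ifnar1 from 30.6 ± 5.27 to 51.6 ± 4.61 FPKM (adjusted p = 0.0389) and Ifngr1 from 83.4 ± 4.25 to 129 ± 7.14 FPKM (adjusted p = 0.0122). Both calls were lost without control #2 or #3, without IL-6 #2 or #3 or with that division as a term. The ligands themselves were barely seen. Ifna1, Ifna2 and Ifna4 were listed at 0 in all 9 libraries, Ifnb1 was at 0 in 7 and reached 0.0889 FPKM at most, and Ifng was at 0 in 6 and reached 0.587 FPKM.

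The 18 sensors, adaptors and kinases that activate IRF3, IRF5 and IRF7 were all tested. With IL-4, 7 were called against the background of 24.8%. Of these, 6 fell and 1, Tmem173, which encodes the DNA-signalling adaptor STING, rose (median log2 fold change of the list -0.48, against -0.20 over all genes). Ikbke, a kinase of IRF3 and IRF7, fell from 42.2 ± 4.99 to 11.1 ± 2.05 FPKM (adjusted p = 8.6e-05), and the nucleic acid sensors Tlr7 (2.85-fold lower), Tlr9 (12.4-fold lower) and Ddx58 (2.01-fold lower, adjusted p = 0.0304) fell as well. The count of 7 became 2 with the division by intestinal fragments as a term and 3 with only the groups compared, 3 without control #1, and 4 without control #2 or #3, IL-6 #2 or #3 or a filter. IL-6 raised 2 and lowered none, where 4.58% of all tested genes rose and 3.82% fell. The 2 were Tmem173, from 9.72 ± 0.571 to 19.1 ± 0.864 FPKM (adjusted p = 0.00582), and the adaptor Myd88, from 29.7 ± 1.18 to 52.4 ± 2.36 FPKM (adjusted p = 0.00252). In the direct comparison 11 of the 18 were higher with IL-6 and none was lower, where 20.8% and 13.3% of all tested genes were. The list's median log2 fold change was 0.77 there, against 0.22 over all genes.

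Downstream, most of the 22 ISGF3 and type I interferon target genes were lower with IL-4. Of the 22, 13 fell and 1 rose, where 16.3% of all tested genes fell and 8.55% rose, and the list's median log2 fold change was -1.42. Ifit3, an antiviral protein gene, ran from 18.2 to 22.8 FPKM in control and from 0.927 to 1.93 FPKM in IL-4-treated libraries (15.4-fold lower, adjusted p = 2.7e-05). Oas2, an RNA-sensing synthetase gene, fell from 6.01 ± 0.820 to 0.345 ± 0.0907 FPKM (17.4-fold, adjusted p = 2.1e-05). Mx1 was 4.75-fold and Ifit1 6.87-fold lower. Ifit, Oas and Gbp genes have near-identical neighbours, so their values are uncertain where a read could come from either copy. Usp18, which damps interferon receptor signalling, was the gene that rose (log2 fold change 1.48, chosen after its values were seen). With the division by intestinal fragments as a term the 14 called became 7. With IL-6, where 4.58% of all genes rose and 3.82% fell, 2 of the 22 rose (Oas2 1.96-fold, adjusted p = 0.0469, and Ifi44 2.34-fold, adjusted p = 0.0400) and none fell. The count of 2 with IL-6 was 0 without any 1 control library, without IL-4 #2, without IL-6 #2 or #3 and with that division as a term, and 6 without IL-4 #3. Directly compared, 18 were higher with IL-6 and 1, Usp18, was lower, where 20.8% and 13.3% of all tested genes were (median log2 fold change of the list 1.83).

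Of the 20 IRF1 and interferon-gamma target genes 17 were tested, and 8 of these were called with IL-4. IL-4 raised 7 and lowered 1, where 8.55% of all tested genes rose and 16.3% fell (median log2 fold change of the list 0.60, against -0.20 over all genes). Socs1, a brake on cytokine signalling that IL-4 also induces, rose from 1.35 ± 0.132 to 26.9 ± 5.12 FPKM (19.9-fold, adjusted p = 3e-06). Ciita, the master activator of MHC class II genes, rose from 1.76 ± 0.610 to 18.4 ± 14.8 FPKM (adjusted p = 0.0242), and Gbp2, a guanylate-binding protein gene, from 17.6 ± 5.03 to 133 ± 114 FPKM (adjusted p = 0.0125). Both spread as widely between IL-4 libraries as their means, with Gbp2 between 44.2 and 262 FPKM, though each IL-4 library was above each control library. Cxcl10, a T-cell chemokine gene, was the 1 that fell, from 4.28 ± 1.34 to 0.126 ± 0.0844 FPKM (33.9-fold, adjusted p = 5.7e-05). The count of 8 became 4 by voom, 5 with only the groups compared, 5 without control library #1 and 4 without control library #3. None of the 17 passed with IL-6, where 8.4% of all tested genes did. Directly compared, 6 were lower with IL-6 and 1, Cxcl10, was higher, where 13.3% and 20.8% of all tested genes were.

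**Figure D4:**
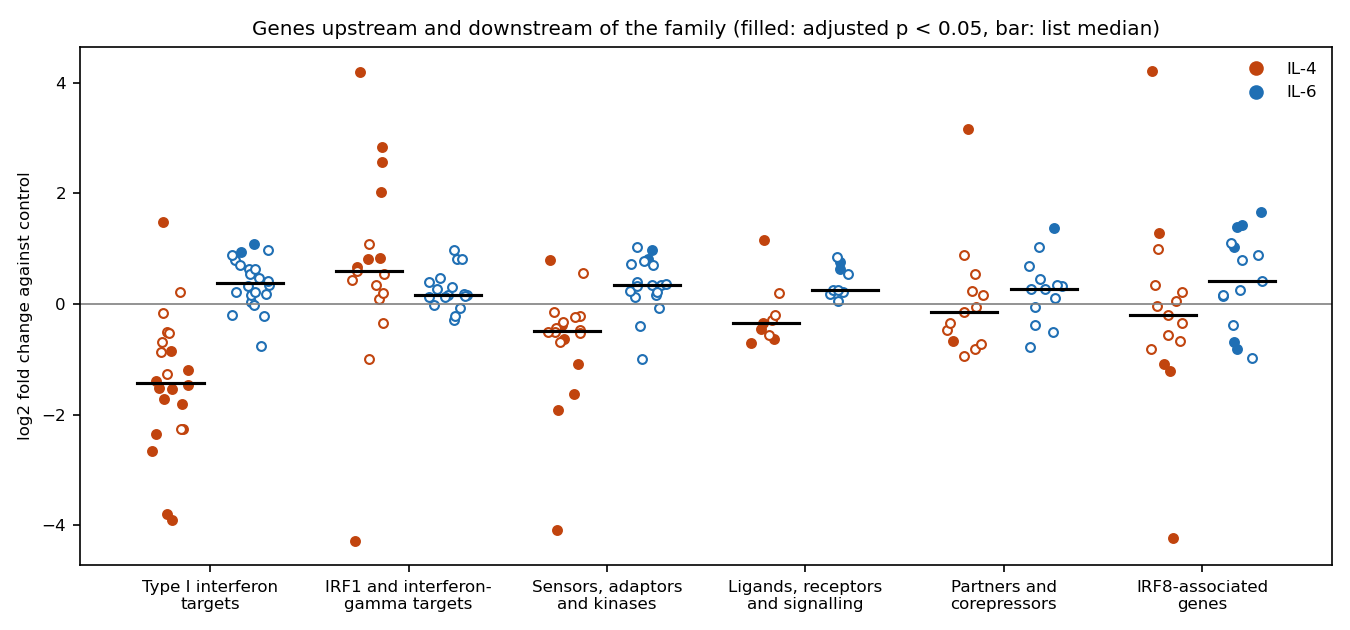
log2 fold change against control (y axis) of the tested genes of 6 pathway lists (x axis) with IL-4 and with IL-6; each point is a gene, filled where the adjusted p was under 0.05, and bars are list medians. The type I interferon targets lie mostly under 0 with IL-4 (median -1.42) and the interferon-gamma targets mostly above it (median 0.60), and with IL-6 the medians are 0.38 and 0.17.

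The stretches around the ISRE matches of target genes that were called with IL-4 are printed to show that the motif stood before genes that fell and genes that rose. Each has 29 bases on the gene's strand of GRCm38.p6, with the ISRE match, on either strand, in capitals; where a window held more than 1 match, only 1 is shown. Ifit1 (chr19:34640794-34640822, + strand), Ifit3 (chr19:34583397-34583425, + strand), Isg15 (chr4:156200877-156200905, - strand) and Cxcl10 (chr5:92349083-92349111, - strand) fell with IL-4, and Gbp2 (chr3:142620594-142620622, + strand) and Socs1 (chr16:10785600-10785628, - strand) rose.
Ifit1: ccagtctcaGTTTCAGTTTCtcactgctg
Ifit3: tttaagtctGTTTCAGTTTCtactttcct
Isg15: atgccgtagGAAAAGGAAACcgaaacaga
Cxcl10: cacgctttgGAAAGTGAAACttacctcac
Gbp2: actcttttaGTTTCACTTTCactgtctta
Socs1: gacttgccgGAAAGAGAAACcgaaagcgg
Such a match was present in 6 of the 19 windows of the type I interferon targets (31.6%), in 7 of the 16 windows of the interferon-gamma targets (43.8%) and in 0.819% of all windows. In both lists it also stood before genes that were not called with IL-4, whose stretches are not printed. It was present in none of the 7 windows of the alternative activation genes. Of these 7, 2 held a GAS match and 3 the longer-spaced match, found in 8.3% and 6.95% of all windows. Of the 19 windows of the type I interferon targets, 5 held a GAS match and 3 the longer-spaced one.

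Of 13 partners and corepressors of IRF proteins, all tested, 1 rose and 1 fell with IL-4, where 24.8% of all tested genes were called. The count of 2 became 6 without IL-4 #3 and 1 without control #2, control #3, IL-4 #1 or IL-6 #2. Batf3, a BATF family member that binds with IRF4 and IRF8, rose from 5.14 ± 0.741 to 51.4 ± 29.0 FPKM (10.0-fold, adjusted p = 0.000326), and Irf2bp1, a corepressor of IRF2, fell from 10.3 ± 1.39 to 6.47 ± 0.837 FPKM (adjusted p = 0.0383). With IL-6, where 8.4% of all tested genes were called, 1 rose, Batf, from 6.33 ± 1.5 to 16.3 ± 2.17 FPKM (adjusted p = 0.0155). In the direct comparison, where 34.1% of all tested genes were called, Batf, Ikzf1 and Irf2bp2 were higher with IL-6 and Batf3 was lower.

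Of 12 alternative activation genes described with IRF4 and the demethylase KDM6B, 11 were tested. With IL-4, 9 of these rose, as 8.55% of all tested genes did, and the list's median log2 fold change was 6.14. Arg1, the arginase of this state, rose from 0.577 ± 0.156 to 1044 ± 273 FPKM (adjusted p = 2e-06), and Pdcd1lg2, which encodes the checkpoint ligand PD-L2, from 0.330 ± 0.0756 to 79.6 ± 14.5 FPKM. With IL-6, where the Irf4 range overlapped with control, 5 of the 11 rose and 3 fell, where 4.58% of all genes rose and 3.82% fell, and none was called with the division by intestinal fragments as a term. Arg1 reached 3.62 ± 1.64 FPKM (6.28-fold above control, adjusted p = 0.00557), and Clec10a, a lectin gene, fell 4.51-fold. Kdm6b was the 1 gene of the list that was higher with IL-6 than with IL-4 (log2 fold change 1.93), and 9 were lower, where 20.8% and 13.3% of all tested genes were. It averaged 9.03 FPKM in control, 3.97 FPKM with IL-4 (adjusted p = 0.053) and 13.8 FPKM with IL-6 (adjusted p = 0.453), and passed against control with neither cytokine.

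The 15 genes tied to IRF8 in monocytes and dendritic cells were all tested, and 5 were called with IL-4, near the 24.8% of all tested genes. With IL-4, 2 rose (Klf4 and Ctss) and 3 fell (Ly6c2, Ly86 and Cx3cr1). Cx3cr1, a chemokine receptor of resident and patrolling cells, fell from 2.79 ± 0.643 to 0.0551 ± 0.0377 FPKM (adjusted p = 1.4e-05), and Klf4, a monocyte transcription factor gene, rose 21.1-fold. With IL-6, 4 rose (Klf4, Cebpb, Ly6c2 and Cx3cr1) and 2 fell (Cebpa and Ly86), with Ly6c2, the marker of inflammatory monocytes, 3.15-fold above control (adjusted p = 0.00282). These 6 calls stand against 8.4% of all tested genes. They became 1 without control #2 or #3 or with the division by intestinal fragments as a term, 2 without any 1 IL-6 library and 10 without IL-4 #3.

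The tested genes whose profile was most like that of each called member, by Pearson's r of log2(FPKM + 0.1) over the 9 libraries, were as follows, given as a description because all points share the same libraries and treatments. For Irf4 they were Cblb (r = 0.994), Ksr2 (0.994) and Slc7a2 (0.993), the last an arginine transporter gene at 0.619 FPKM in control and 50.0 FPKM in IL-4-treated Mϕs. For Irf1 they were Cnn3 (0.972), the peptide transporter gene Tap1 (0.965) and Tfec (0.965). For Irf7 they were the cytokine gene Il18 (0.993), Fcnb (0.992) and Cybc1 (0.992), with Il18 averaging 18.2, 2.97 and 24.9 FPKM in control, IL-4 and IL-6 libraries. For Irf8 they were Selenop (0.997), Plod1 (0.994) and Gm15708 (0.993), and Selenop averaged 2033, 179.5 and 1028 FPKM. For Irf9 they were Cfap43 (0.985) and the immunoglobulin segments Ighv1-81 (0.984) and Ighv9-3 (0.981), which come from B-lineage cells.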

How the data were processed

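RNA was measured in BM-derived Mϕs of 3 groups with 3 libraries each, which GEO's labels name as control, IL-4 and IL-6. The authors prepared libraries with a stranded mRNA kit, and their processing notes name STAR 2.4.2a, Cufflinks 2.2.1 and GRCm38. The deposited values are FPKM per gene. They were whole fragments over the GENCODE exon length in 100.0% of 183346 values above 0 (tolerance 0.05 fragments), which gave the library totals and fragment counts.

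Groups were compared with limma 3.58.1 (R 4.3.3; trended, robust moderation) on log2(FPKM + 0.1) over 12824 genes with a mean of at least 0.5 FPKM, all 9 libraries in 1 fit, with Benjamini-Hochberg adjustment over all genes; fold changes of low genes are understated on this scale. Test scripts were checked on simulated data. Symbols and coordinates came from GENCODE M21 (50604 of 53379 identifiers, 94.8%, matched with version; Irf8 matched without version, with whole fragments over its exon length in all libraries). Promoter sequence came from RefSeq, GRCm38.p6. The family members, 7 pathway lists and 8 marker lists were chosen with earlier results of these data known. Named in the text are every IRF gene and the 3 genes nearest to each called IRF. Pathway lists give up to 4 genes with the largest called changes and no overlap. Marker genes named are some of those above 1 FPKM in a group, together with Ccr9 and Klk1 below it. Other genes are named where a count of 5 or fewer is spelled out, and Ccl22 is named for its passage of the filter.

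The study used 3 mice, and the deposited columns end in m and a number, but no source states that equal numbers mark the same mouse in each group, so pairing by number was assumed for an alternative fit only. Deviations of same-numbered libraries from their group means correlated across genes at 0.521, -0.415 and 0.0777 for IL-4 and control, 0.408, 0.201 and 0.166 for IL-6 and control, and 0.281, -0.0612 and 0.153 for IL-6 and IL-4. Alternatives covered pseudocounts, filters, rescaling, the model, single libraries left out and, added after seeing the data, removal of length and GC trends. For the division by intestinal fragments, Lyz1 was left out of the intestinal list after the data were seen. As a term, this division rests only on IL-4 #1 against IL-4 #2 and #3, so calls lost with it depend on those libraries.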

Additional observations from a re-analysis of the deposited data

How the results depend on the processing

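Of 504 refits of the log2 fold changes of single IRF genes, 458 kept direction and side of the threshold, 25 lost the call, 13 gained one and 8 changed sign, none of them in a call as reported. For Irf5, IL-4 against control, the value of -0.02 became 0.18 after median-ratio rescaling and 0.05 without IL-4 #3 (-0.08 to 0.05 over all single libraries left out). With the division by intestinal fragments as a term, Irf8 was at 0.13 and Irf4 at 0.50 for IL-6 against control. Irf2 for IL-6 against IL-4 was at -0.12 after median-ratio rescaling, -0.15 after quantile normalization, -0.05 with length and GC trends removed and -0.39 without IL-4 #3 (adjusted p = 0.0458), and ran from -0.39 to 0.36 over all single libraries left out. IRF genes called numbered 4 in the IL-4 comparison with control (3 to 6 without 1 library), 0 in the IL-6 comparison with control (0 to 3) and 5 in the direct comparison (3 to 8). In the IL-6 comparison the count was 2 with only the groups compared and 1 with length and GC trends removed (Irf7, log2 fold change 0.64). In the direct comparison it was 3 without a filter, 3 with only the groups compared and 2 with a 2-fold minimum. With the library number, taken as a mouse, as a replicate block it was 3, and the block changed no other IRF call; over all genes the block called 3023, 908 and 4463 in the order below. The cause of these changes was not tested.

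Over all genes, the 3 comparisons in this order called 3186, 1077 and 4375. A mean of at least 5 FPKM gave 1839, 628 and 2479, as fewer genes were tested, and a 2-fold minimum gave 1784, 690 and 2613. A fit of only the groups compared gave 1796 and 2822 in the first 2 comparisons, and the intestinal division as a term 1367 and 187. Leaving out 1 library gave 2026 to 4848, 462 to 3168 and 2911 to 5544. Counts of listed genes stayed within 1.5 times in 784 of 990 refits. Depth limits Irf4 in control and IL-6 libraries and Irf7 in IL-4 libraries most, at 200 to 378 fragments each.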
